A study of Rattus norvegicus with 12 samples.

Results

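Phenylephrine (PE) raised a number of genes in cultured heart muscle cells. In normalized counts, a small set of these kept most of its raised level when the kinase inhibitor THZ1 was also given. These genes are described here. They were chosen by 3 limits on the deposited normalized counts, namely a mean of at least 20 over all 12 libraries, a PE mean of at least 2 times the baseline mean, and a PE + THZ1 mean of at least 0.8 times the PE mean. Of the 15920 genes in the table, 13350 met the first limit, 296 of these also met the second, and 33 met all 3. Every gene of the table had reads in all 12 libraries, so a gene without reads in 1 of them could not be chosen. These 33 genes are called members, and the other 263 PE-induced genes serve as the comparison. Genes carry only Ensembl identifiers in these files, and 0 of the identifiers had a match among the 47357 entries of the RefSeq gene table used here. Gene names, functions, positions and sequences are therefore not given, and markers of cardiomyocytes or of other heart cells could not be read. Members are referred to by their rank in the ratio of PE to baseline, from rank 1 (the highest ratio) to rank 33, and only 4 identifiers are printed.

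RNA was measured by RNA-seq in neonatal rat ventricular myocytes (NRVM), primary cells of Sprague Dawley pups aged 2-3 days, which were kept in serum-free medium before treatment. The groups were baseline (vehicle), PE at 100 µM, THZ1 at 10 nM, and PE + THZ1 at these same doses, with 3 libraries each and 48 h of treatment by the labels. For the 6 libraries that received PE, the column names read 24 h instead. By the methods, vehicle or inhibitor was added 3 h before PE. Cultures were pre-plated and exposed to BrdU to lower the number of nonmyocytes, so some other heart cells can remain, and in such bulk RNA a change in the share of a cell type and a change in RNA per cell cannot be told apart. Neither the labels nor the methods say whether the libraries of a group came from separate cell preparations, and p-values then measure only the spread between these libraries.

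PE activates α1-adrenergic receptors on cardiomyocytes, which signal through Gq and protein kinases to the nucleus, and the cells respond by growing and by switching on genes of hypertrophic stress. THZ1 binds covalently to CDK7 and also blocks CDK12 and CDK13, kinases that phosphorylate the tail of RNA polymerase II as it starts and extends a transcript. Inhibitors of this kind are known for lowering genes whose transcripts depend most on continuous synthesis.

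Whole reads could be recovered from the steps of the normalized counts (100% of the values lay within 0.01 of a whole read). The libraries held between 30458862 and 45885754 reads counted on genes, and the size factors lay between 0.857 and 1.33. After scaling, the summed normalized counts were lower in all 6 libraries with THZ1 than in any of the 6 without it. Baseline replicate 2 stood apart from the other baseline libraries. Its counts differed from theirs by a chi-square of 48.3 and 51.9 per gene, against 1.99 to 8.09 for every other pair of libraries within a group. No pair agreed within sampling noise, and each library was used as 1 replicate.

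The members were not the strongest PE responders. Their ratio of PE to baseline ran from 2.01 to 3.26 with a median of 2.17, while that of the other 263 PE-induced genes ran from 2.00 to 8.96 with a median of 2.43. Of the members, 24 had a ratio under 2.5 and 4 had a ratio of at least 3. With THZ1 added, the members stood at 0.806 to 1.43 times the PE level (median 0.966), and the other PE-induced genes at 0.0370 to 0.799 times (median 0.355). Of the rise from baseline to PE, the members kept a median of 93.3% with PE + THZ1 (quartiles 83.2% and 119%), and the other PE-induced genes a median of -6.82%, a level just under baseline. These ratios chose the members and are given as a description without a test. The plot of the limits shows that the members lie mostly close to the PE limit.

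**Figure D1:**
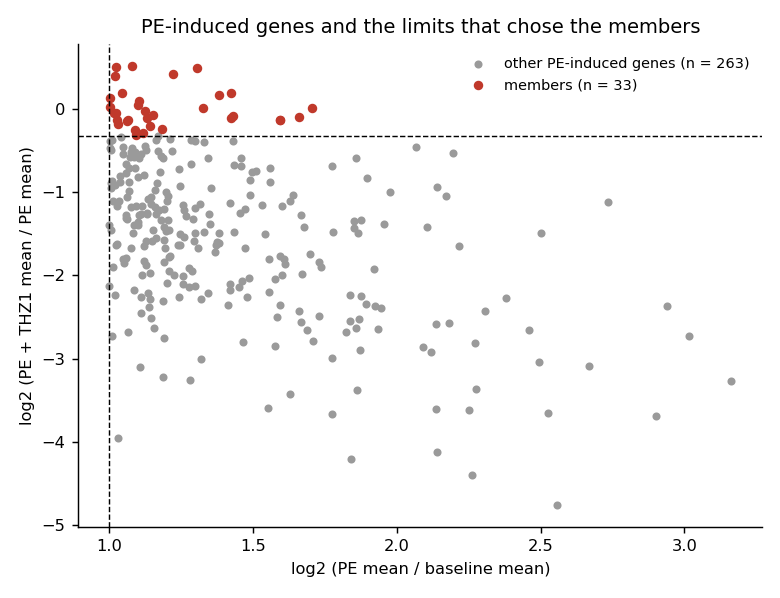
Ratio of the PE + THZ1 mean to the PE mean against the ratio of the PE mean to the baseline mean, both on the log2 scale, for the 296 PE-induced genes, with the limits of the rule as dashed lines. The 33 members (red) lie above the horizontal line, and none has a PE ratio over 3.26, while the other 263 genes (grey) reach 8.96.

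The genes nearest to the limits show how narrow the choice is. The 3 members nearest to the PE limit had ratios of 2.01, 2.01 and 2.02, and the 3 genes just outside it that met the other limits had 1.98, 1.97 and 1.93. At the limit on THZ1 the nearest members had 0.806, 0.814 and 0.836 times the PE level, and the nearest genes outside had 0.799, 0.790 and 0.779. By mean normalized count the nearest members had 20.3, 20.4 and 20.9, and the nearest genes outside had 19.4, 18 and 16.8.

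The members covered a wide range of expression, with mean normalized counts from 20.3 to 13165 and a median of 122.9, against 408 for the other PE-induced genes and 543 for the 15222 genes tested. Of the 33, 13 had a mean under 50 and 7 had a mean of at least 1000. All 33 passed the minimum mean of 5 normalized counts set for testing, which is below the limit of the rule. As few as 4 reads stood behind a member's value in a single library, 7 members had under 10 reads in at least 1 library, and 12 had at least 100 reads in every library. Spread between baseline replicates was wide. The coefficient of variation at baseline had a median of 18.7% among members and 8.42% among all genes tested, whereas with PE it was 10.6% and 5.5%.

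Baseline replicate 2 was often the highest of its group. Its value was above both other baseline libraries in 20 of the 33 members, in 74.5% of the other PE-induced genes and in 39.4% of all genes tested. In 8 members (24.2%) it was at least 1.5 times the higher of the other two, compared with 12.9% of the other PE-induced genes and 2.64% of all genes tested. The rule depends on this library. Without it 63 genes met the 3 limits, of which 32 are members, and 10 members kept a PE mean of at least 2 times the highest of the 3 baseline libraries. Without any 1 of the other libraries between 25 and 33 genes met the rule. The map of members by library shows baseline replicate 2 in orange beside blue or pale neighbours at ranks 4, 8, 9, 11, 13, 15, 26 and 31.

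**Figure D2:**
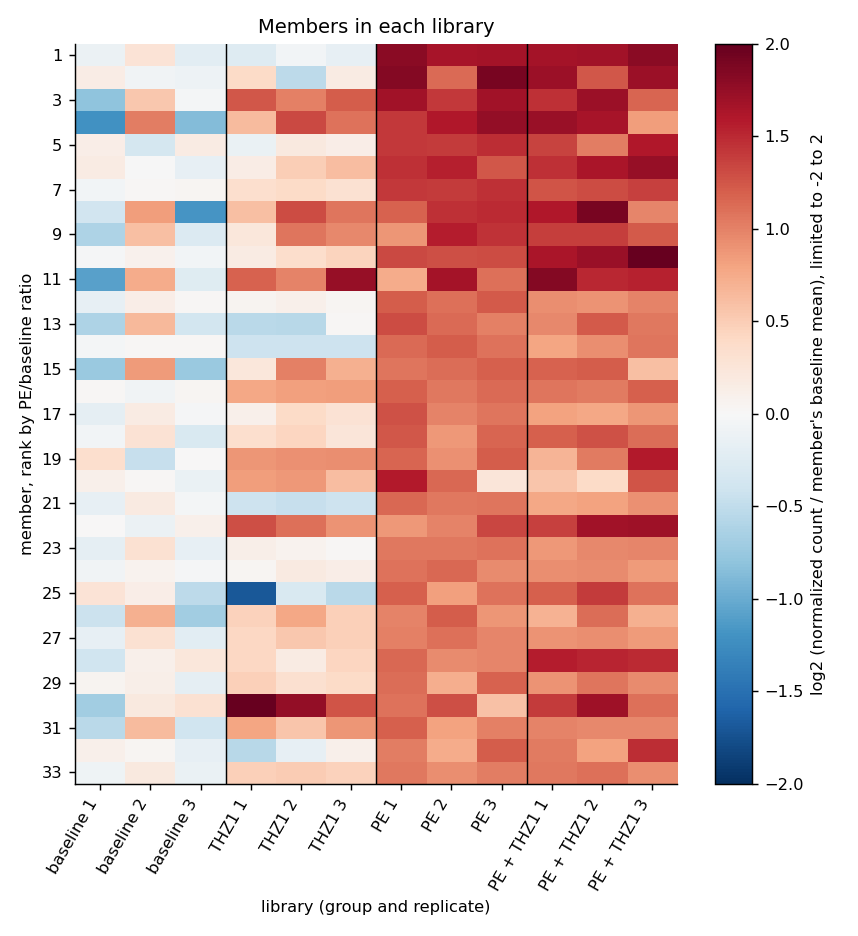
Normalized count of each member (rows, by rank in the ratio of PE to baseline) in each of the 12 libraries (columns), as log2 of the ratio to that member's baseline mean, with colours limited to -2 to 2. The PE and PE + THZ1 columns are red throughout, the THZ1 columns differ from row to row, and baseline replicate 2 is red in part of the rows.

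**Figure D3:**
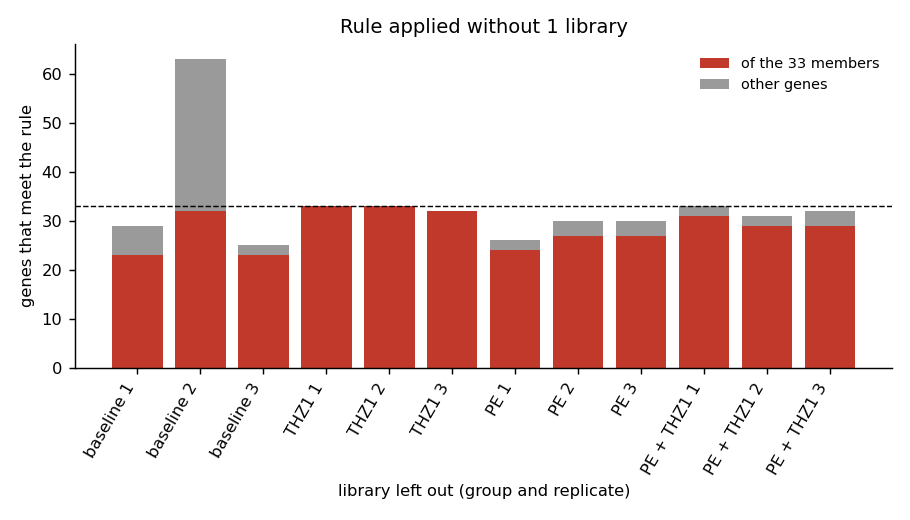
Number of genes that met the rule when the library on the horizontal axis was left out, with members in red and other genes in grey, and the 33 members of the full table as a dashed line. Without baseline replicate 2 the number was 63, and without any other single library it was between 25 and 33.

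When the members were chosen from 2 replicates of every group and read in the third, the result again differed with replicate 2. Genes chosen from replicates 2 and 3 numbered 26, and in replicate 1 their median ratio of PE to baseline was 2.45 with 17 of the 26 at 2 or above. Replicate 3 gave a median of 2.54, with 17 of 21 genes at 2 or above. In replicate 2, by contrast, the median was 1.50, with 13 of 57 genes at 2 or above and 44 of 57 above 1. The ratio of PE + THZ1 to PE moved little, with medians of 0.963, 1.04 and 0.986 in replicates 1, 2 and 3. It was at least 0.8 in 21 of 26, 47 of 57 and 17 of 21 genes. These are values of single libraries with no test.

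The deposited table also assigns each gene to a cluster, made by the authors from the same libraries, so the following counts only describe the members. In the numbering of that column, 26 of the 33 members lay in cluster 4, which holds 1490 genes or 9.36% of the table. A further 4 lay in cluster 2, 2 in cluster 1 and 1 in cluster 6. Of the other 263 PE-induced genes, 252 lay in cluster 2 and 9 in cluster 4. The paper describes its cluster 5 as genes induced by PE and suppressed with THZ1, but 0 of these 263 lay in cluster 5 here. The numbers of this column are therefore not those of the paper's figure.

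THZ1 alone against baseline asks what the inhibitor does without PE. The rule did not use this ratio, although the baseline libraries entered the rule and the THZ1-alone libraries entered its mean over 12. Of the 33 members, 21 were higher with THZ1 alone than at baseline, 3 were lower and 9 were not called (limma on log2(normalized count + 1), adjusted p under 0.05 over all genes tested). Over all 15222 genes tested, 24.4% were higher and 24.7% were lower. The median log2 change of the members was 0.40, against a median standard error of 0.18, and 27 of 33 had a positive change. Among the other 263 PE-induced genes 12 were higher and 194 were lower, with a median log2 change of -0.70. The median over all genes was 0.00033. In 12 of the 33 members the THZ1-alone libraries lay above all baseline libraries, a share not far from the 26.5% of all genes tested, and in 2 members they lay below them, against 26.6% of all genes.

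Because a baseline that reads low by error favours both membership and a rise with THZ1 alone, the comparison was repeated with separate baseline libraries. Genes were chosen with 1 baseline library and THZ1 alone was tested against the other two. With replicate 1 choosing, 24 of 75 genes (32%) were higher, against 21.9% of all genes tested in that fit. With replicate 2 choosing it was 9 of 23 (39.1%, against 26.2%), and with replicate 3 choosing 18 of 71 (25.4%, against 22.0%). These shares stood closer to the background than the 21 of 33 in the full table did. They come from other sets of genes and from fits with 1 baseline library fewer, which also changed the count for the 33 members themselves (next paragraph). The choice of genes and the loss of a library were not separated, and no result about the members is read from these shares. Falls made up 3 of 75 (4.00%, against 22.4%), 1 of 23 (4.35%, against 27.4%) and 3 of 71 (4.23%, against 22.5%). The medians of the log2 change were 0.33, 0.35 and 0.31.

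The count of members that rose with THZ1 alone was 13 without baseline replicate 1, 12 without baseline replicate 3 and 13 without THZ1 replicate 2, or 39.4%, 36.4% and 39.4% of the members, against 21.9%, 22.0% and 20.4% of all genes tested in those fits. It was 23 (69.7%, against 26.2%) without baseline replicate 2. With libraries scaled to equal totals, the median of all genes moved to 0.15 on the log2 scale and that of the members to 0.55. Under equal totals 24 of the 33 members (72.7%) were called higher and 2 (6.06%) lower. Among all genes tested under equal totals, 39.1% were called higher and 14.8% lower. When only called genes are counted, rises made up 72.5% under equal totals and 49.7% in the main fit.

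PE + THZ1 against THZ1 alone gives the effect of PE with the inhibitor present in both groups. Of the members, 21 were higher with PE + THZ1 than with THZ1 alone, 0 were lower and 12 were not called (limma, adjusted p under 0.05). Over all genes tested 11.8% were higher and 10.8% were lower. No member was lower at an unadjusted p under 0.05 (limma), edgeR and DESeq2 on the same libraries called 0 lower, and 31 of the 33 log2 changes were positive. In 24 members the PE + THZ1 libraries lay above all THZ1-alone libraries, which held for 21.1% of all genes tested. The median log2 change was 0.57 for the members and 0.54 for the other 263 PE-induced genes, of which 176 were higher and 5 lower. A difference between these medians was not tested. The PE + THZ1 libraries also entered the rule, and the lowest ratio of PE + THZ1 to baseline among members was 1.72. A member could thus fall below THZ1 alone only where THZ1 alone exceeded 1.72 times baseline. Where 1 PE + THZ1 library chose the genes and the other 2 were tested, 21 of 31, 19 of 33 and 26 of 39 genes were higher, against 9.39%, 8.78% and 8.62% of all genes higher. These genes were again chosen for a rise with PE. With THZ1 present, 66.9% of the other 263 PE-induced genes were also called higher with PE, so the counts for the members are a description.

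For PE + THZ1 against THZ1 alone the upper quartiles were 1.23 for the members and 0.86 for the other PE-induced genes. For the members the rule sets a floor on the sum of the 2 changes, which is the level with PE + THZ1 relative to baseline. The medians of opposite sign for THZ1 alone (0.40 and -0.70) therefore depend on the choice of genes. How far they depend on it was not measured, and they are given as a description. The plot of the 2 changes shows the members to the right of most of the other genes at similar heights. Both axes share the THZ1-alone libraries, so no correlation is given.

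**Figure D4:**
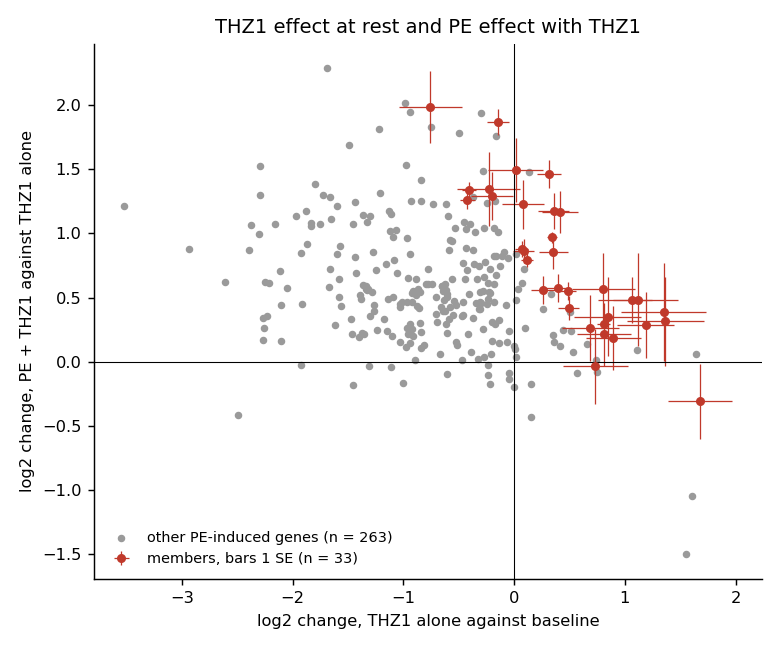
Log2 change of PE + THZ1 against THZ1 alone (vertical) plotted over the log2 change of THZ1 alone against baseline (horizontal), for the 33 members (red, bars of 1 standard error) and the other 263 PE-induced genes (grey). The medians are 0.57 and 0.54 on the vertical axis, and 0.40 and -0.70 on the horizontal axis.

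By these calls the members are described in 3 patterns. The calls for THZ1 alone share the baseline libraries with the rule and changed with the library left out. The rule also holds PE + THZ1 above baseline, with a lowest ratio among members of 1.72. A rise over THZ1 alone was therefore close to fixed for members that THZ1 alone did not raise. The patterns, and the p-values of single members in both comparisons, describe these libraries and are not separate evidence about the members. In 12 members THZ1 alone did not raise the gene (9 not called and 3 lower), and all 12 were higher with PE + THZ1 than with THZ1 alone. These are ranks 1, 2, 5, 12, 13, 14, 17, 21, 23, 24, 25 and 32. In 9 members, ranks 6, 7, 10, 16, 18, 27, 28, 29 and 33, both changes were called as rises. In the remaining 12, ranks 3, 4, 8, 9, 11, 15, 19, 20, 22, 26, 30 and 31, a rise was called with THZ1 alone and none with PE + THZ1 over THZ1 alone.

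The first pattern holds genes that stood higher with PE both without and with THZ1, though THZ1 lowered some of them. Their ratio of THZ1 alone to baseline ran from 0.604 to 1.2, and that of PE + THZ1 to THZ1 alone from 1.47 to 3.88 with a median of 2.45. The calls placed them here, so these ratios only describe them. In ranks 12, 14, 17, 21 and 23 every PE + THZ1 library lay below every PE library, as in 33.5% of all genes tested. Their means with PE + THZ1 were 0.814 to 0.912 times those with PE. The rule used these libraries, so this too is a description.

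Rank 1 is the clearest case. Its normalized counts in replicates 1, 2 and 3 were 190, 248 and 179 at baseline, 172, 198 and 183 with THZ1 alone, 716, 647 and 650 with PE, and 650, 658 and 715 with PE + THZ1. All libraries with PE lay above all libraries without it, and the groups that differ only in THZ1 overlapped. Its log2 change was -0.14 for THZ1 alone against baseline (standard error 0.10, adjusted p = 0.26 from limma) and 1.87 for PE + THZ1 against THZ1 alone (standard error 0.10, adjusted p = 1.9e-09 from limma).

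Rank 2 had the same shape at a low level, with 20.4, 17.5 and 17.2 normalized counts at baseline, 23.9, 12.8 and 20.6 with THZ1 alone, 65.3, 40.1 and 68.6 with PE, and 60.1, 43.3 and 59.9 with PE + THZ1. Replicate 2 was the lowest of its group with PE and with PE + THZ1, though both values stayed above all libraries without PE. For rank 5 the group means were 23.7 ± 4.43 (SD, n = 3) at baseline, 24.9 ± 2.85 with THZ1 alone, 63.7 ± 1.72 with PE and 60.1 ± 12 with PE + THZ1.

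The more abundant ranks 12 and 24 had smaller standard errors of the log2 change, 0.06 in both against 0.19 in rank 5. Rank 12 stood at 1028 ± 102 at baseline, 1074 ± 25.1 with THZ1 alone, 2334 ± 104 with PE and 1970 ± 66.1 with PE + THZ1. Rank 24, the third most abundant member, stood at 1809 ± 88.6, 1962 ± 93.5, 3773 ± 272 and 3405 ± 118 in the same order. PE + THZ1 stood at 0.844 times the PE level in rank 12 and at 0.902 times in rank 24. Without baseline replicate 2 both were called higher with THZ1 alone as well (adjusted p = 0.049 and 0.020 from limma), as were ranks 17 and 23, which left 8 of the 12 not higher with THZ1 alone.

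The 3 members lowered by THZ1 alone belong to this pattern too. ENSRNOG00000017307, rank 21 and the most abundant member, had 8320, 10610 and 9039 normalized counts at baseline and 7033, 6753 and 6986 with THZ1 alone, so that the groups did not overlap. With PE it had 20708, 19290 and 19507, and with PE + THZ1 15929, 16219 and 17584. The log2 change was -0.42 with THZ1 alone (standard error 0.07, adjusted p = 4.1e-05 from limma) and 1.26 for PE + THZ1 against THZ1 alone (standard error 0.07, adjusted p = 1.6e-09).

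Rank 14 fell in a like manner, from 809 ± 19.3 at baseline to 609 ± 1.25 with THZ1 alone, and stood at 1787 ± 75.9 with PE and 1543 ± 151 with PE + THZ1. ENSRNOG00000002916, rank 25, was a low gene with 31.2, 28.4 and 18 normalized counts at baseline and 7.98, 21 and 17.9 with THZ1 alone, and these groups overlapped. With PE it had 59.5, 45.7 and 54.9, and with PE + THZ1 59.1, 68.3 and 54.8. Its fall with THZ1 alone (log2 change -0.76, standard error 0.28, adjusted p = 0.034 from limma) was no longer called without THZ1 replicate 1, baseline replicate 1 or baseline replicate 2 (adjusted p = 0.229, 0.128 and 0.0663). PE + THZ1 exceeded THZ1 alone by 1.99 on the log2 scale (standard error 0.28, adjusted p = 5.7e-05).

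The second pattern holds genes called higher with THZ1 alone and higher again with PE + THZ1. The 9 members had ratios of THZ1 alone to baseline between 1.25 and 1.75, and of PE + THZ1 to THZ1 alone between 1.23 and 2.78. Being called in both comparisons placed them here, so these ratios only describe them.

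Rank 7, the second most abundant member, had 2917, 3065 and 3093 normalized counts at baseline, 3815, 3949 and 3751 with THZ1 alone, 8036, 7953 and 8336 with PE, and 7254, 7475 and 7813 with PE + THZ1. No 2 of its groups overlapped. The log2 change was 0.34 with THZ1 alone (standard error 0.04, adjusted p = 2.8e-06 from limma) and 0.97 for PE + THZ1 against THZ1 alone (standard error 0.04, adjusted p = 2.8e-10).

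Rank 16 showed the largest rise with THZ1 alone among these 9, from 490, 460 and 499 at baseline to 824, 851 and 867. It had 1104, 1002 and 1053 with PE and 1014, 996 and 1104 with PE + THZ1, 2 groups that overlapped. The log2 change was 0.81 with THZ1 alone (standard error 0.06, adjusted p = 4.3e-09 from limma) and 0.29 for PE + THZ1 against THZ1 alone (standard error 0.06, adjusted p = 0.0015). Rank 33 stood at 1027 ± 133 at baseline, 1433 ± 20.5 with THZ1 alone, 2060 ± 88.2 with PE and 2100 ± 122 with PE + THZ1, and rank 27 at 1075 ± 224, 1495 ± 67.9, 2190 ± 108 and 1994 ± 47.8. In both genes every treated library lay above every baseline library. Ranks 6, 18 and 29 completed the pattern, with means over the 12 libraries of 62.4, 179 and 315.

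The third pattern consists mostly of low genes. The 12 members had mean normalized counts from 20.4 to 149 with a median of 32.9, against 315 in the second pattern and 313 in the first, and 7 of the 8 members in which baseline replicate 2 was at least 1.5 times the other baseline libraries belong here. Their baseline coefficient of variation had a median of 47.0%, compared with 11.3% in the second pattern and 12.3% in the first. THZ1 alone stood at 1.49 to 3.38 times baseline, and PE + THZ1 at 0.789 to 1.45 times THZ1 alone. A p that misses the threshold does not show that PE had no effect here, and 3 of the 12 had PE + THZ1 libraries above all THZ1-alone libraries.

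ENSRNOG00000009528, rank 30, had the largest rise with THZ1 alone in the full table, while without baseline replicate 2 rank 4 had a larger one (log2 change 2.03, against 1.80). Rank 30 went from 6.45, 12 and 12.9 normalized counts at baseline to 45.6, 35.3 and 25. With PE it had 22.2, 25.6 and 15.7, and with PE + THZ1 27.6, 33.7 and 22.3. The THZ1-alone libraries all lay above the baseline libraries, and the 3 drug groups overlapped in part. The log2 change was 1.68 with THZ1 alone (standard error 0.29, adjusted p = 0.00012 from limma) and -0.31 for PE + THZ1 against THZ1 alone (standard error 0.29, adjusted p = 0.50).

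ENSRNOG00000026488, rank 11, came next, with 4.30, 15.3 and 7.72 at baseline, 20.5, 18 and 30.4 with THZ1 alone, 15.2, 29.0 and 19.6 with PE, and 32.5, 26.0 and 26.4 with PE + THZ1. The baseline libraries lay below all THZ1-alone libraries, and baseline replicate 2 overlapped with PE. Its log2 change with THZ1 alone was 1.36 (standard error 0.35, adjusted p = 0.0034 from limma), and 0.31 for PE + THZ1 against THZ1 alone (standard error 0.35, adjusted p = 0.58).

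In ranks 4 and 15 baseline replicate 2 was farthest above the other baseline libraries, by 3.70 and 3.02 times the higher of them. Rank 15 was chosen for description after its values were seen. Rank 4 had 29.0, 136 and 36.9 at baseline, 105, 168 and 144 with THZ1 alone, 180, 204 and 227 with PE, and 223, 213 and 121 with PE + THZ1. Rank 15 had 43.0, 130 and 42.9 at baseline, 84.3, 144 and 117 with THZ1 alone, 152, 156 and 166 with PE, and 163, 167 and 109 with PE + THZ1. In both genes baseline replicate 2 lay within the range of the THZ1-alone libraries, and PE + THZ1 replicate 3 lay below the PE libraries. Without baseline replicate 2 the ratio of THZ1 alone to baseline was 4.22 for rank 4 and 2.68 for rank 15, against 2.06 and 1.60 with it. The part of this library in these results was not tested further.

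**Figure D5:**
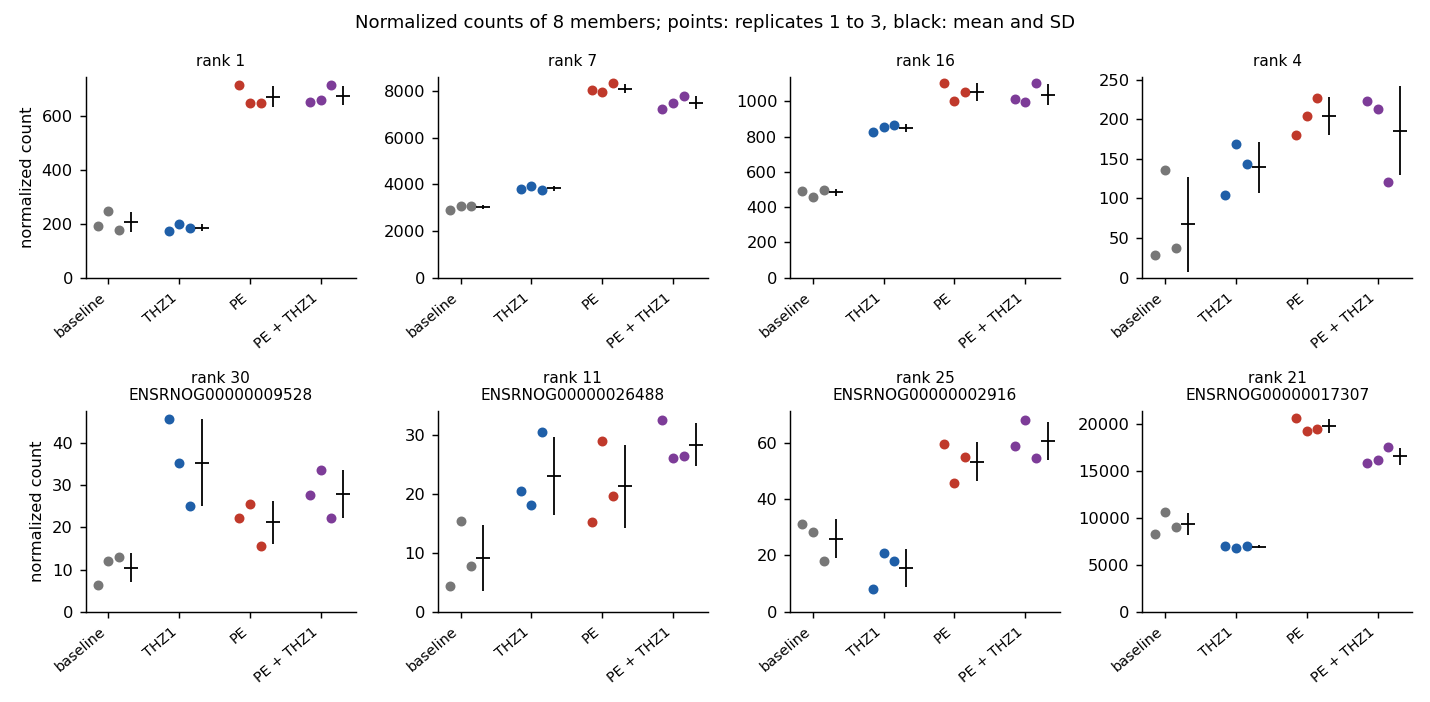
Normalized counts of 8 members by group, with replicates 1 to 3 as points from left to right and the mean and SD in black, on axes that start at 0. The rank 1 groups overlap with and without THZ1, ranks 7 and 16 also rise with THZ1 alone, rank 4 has a high baseline replicate 2 (136 against 29.0 and 36.9), and the lower row shows the 4 genes printed by identifier.

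Some members were higher with both compounds than with PE alone. A ratio of PE + THZ1 to PE of at least 1 was found in 14 members, of which 5 had at least 1.2. The PE + THZ1 libraries lay above all PE libraries in 3 members and below them in 7, against 33.2% and 33.5% of all genes tested, and since the rule used these libraries nothing is read from these counts. Rank 22 had the highest ratio, 1.43, with 40.8, 44.6 and 56.8 normalized counts with PE and 58.1, 72.1 and 73.1 with PE + THZ1. It was also raised by THZ1 alone, from 22.5 ± 1.65 to 48.3 ± 6.34. Rank 28 stood at 149 ± 11.3 with PE and 211 ± 5.83 with PE + THZ1, and rank 10 at 239 ± 1.47 and 337 ± 49.4. All 3 genes had PE + THZ1 libraries above every PE library. For ranks 28 and 10, THZ1 alone rose over baseline only by 1.27 and 1.25 times. In all 3 genes the highest group mean was that of the combined treatment.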

How the data were processed

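RNA-seq was analysed in 12 NRVM libraries, 3 per group, assigned by the sample labels. TopHat v2.1.1 was used for alignment to rn5 and htseq-count for strand-aware counting, and the authors divided the counts by DESeq2 size factors, so the deposited values are a signal of normalized counts. A further column holds the authors' cluster of each gene and was used as a category. Reads were recovered by dividing each library by its smallest value.

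The test was limma 3.58.1 (R 4.3.3), applied to the log2 of the normalized count plus 1, which understates changes of low genes. It used 1 fit of all 12 libraries, a trended prior variance, two-sided tests and Benjamini-Hochberg adjustment over the 15222 genes with a mean of at least 5, and was tested on simulated reads. Alternatives were edgeR 4.0.16 and DESeq2 1.42.0 on recovered reads, other scalings, filters, pseudocounts and fits, and each library left out. The members and lists were chosen with earlier results of these data known, and members chosen with 1 library were tested in others for that reason.

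Genes to be described were the 12 members with the highest PE ratios, the 8 with the highest means, the 6 with the highest ratios of PE + THZ1 to PE, the 6 largest called rises and 6 largest called falls (3 were found) with THZ1 alone, and the 3 genes nearest each limit. Without symbols, identifiers were limited to the 2 largest rises and 2 largest falls, and lists of genes fixed by symbol could not be applied. Few reads limit the precision for low genes.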

Additional observations from a re-analysis of the deposited data

Results flagged for a closer look

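In 2 of the 33 members every THZ1-alone library lay above every baseline library while every PE + THZ1 library lay below every PE library, which held for 317 of the 15222 genes tested (2.08%). The difference between the THZ1 effects without and with PE was not tested, because the rule used the PE + THZ1 and PE libraries. Rank 7 had ratios of means of 1.27 for THZ1 alone to baseline and 0.927 for PE + THZ1 to PE, and rank 27 had 1.39 and 0.911. For rank 27 the log2 change of PE + THZ1 against PE was -0.13 with a standard error of 0.09. Groups of 3 libraries were not tested for single outlying values.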

How the results depend on the processing

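Scaling to equal totals gave 34 genes, of which 20 are members and 14 are not, and group medians gave 42, of which 27 are members. Neither the median changes of the members nor the changes of the 4 genes printed by identifier changed sign under any alternative. Single members with small changes could. Without baseline replicate 2 the log2 change with THZ1 alone went from 0.014 to -0.018 in rank 2. It went from 0.080 to -0.078 in rank 5 and from -0.23 to 0.12 in rank 13. The number of genes that met the rule was 20 with a minimum mean of 50, 191 and 4 with a PE ratio of at least 1.5 and 3, 52 with a PE + THZ1 ratio of at least 0.7, 10 when the PE limit had to hold against each baseline library (added after seeing the data), and 21 to 63 with libraries or replicate numbers left out. For THZ1 alone against baseline, members higher numbered 12 to 23 with each library left out, 17 by edgeR and 14 by DESeq2. Of all genes tested, 20.4% to 26.2%, 23.9% and 22.6% were higher in those fits. Of 23 genes chosen with baseline replicate 2 and tested in the other 2, 9 were higher and 1 lower. Of all genes tested in that fit, 26.2% were higher and 27.4% lower. Genes chosen and tested without that library (added after seeing the data) gave 45 higher of 63 (71.4%) and a median log2 change of 0.71. In that fit 26.2% of all genes tested were higher. The same baseline libraries chose and tested these genes, so the count is a description. For PE + THZ1 against THZ1 alone, the median was 0.84 when PE + THZ1 replicate 3 chose the genes and 0.39 when baseline replicate 2 was left out of the choice. With the members kept, 21 or 22 were higher in every setting, against 8.62% to 15.3% of all genes tested. The rule favours such rises, so this count is a description. For ENSRNOG00000002916 the fall with THZ1 alone was not called in 9 settings, edgeR (adjusted p = 0.087), DESeq2 (adjusted p = 0.0894) and equal totals (adjusted p = 0.0876) among them. The cause was not tested in any of these cases. Deviations of same-numbered libraries correlated weakly (-0.0644 to 0.116, mean 0.030, against a mean of -0.015 for other numbers). Still, 8 of 12 libraries were closest to their own number. The main fit did not take the numbers as pairs, and a replicate block was an alternative. The block gave 19 members higher and 3 lower with THZ1 alone, against 24.9% and 25.4% of all genes tested. For PE + THZ1 against THZ1 alone it gave 21 higher, against 12.3% of all genes tested. With 3 libraries a group and as few as 4 reads behind a value, changes of low members are known only within wide errors.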

Other observations

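Leaving baseline replicate 2 out of the rule, an alternative chosen after seeing the data, brought in 31 genes that are not members and lost 1 member. In 30 of the 31 this library was above both other baseline libraries, and in 20 it was at least 1.5 times the higher of them. Their ratio of PE to baseline was 1.14 to 1.98 with it (median 1.74) and 2.01 to 3.64 without it (median 2.15). PE + THZ1 stood at 0.804 to 1.74 times PE (median 1.01), and their mean normalized counts ran from 20.9 to 1463 with a median of 43.8. Tested without that library, 23 of the 31 rose with THZ1 alone, at a median ratio to baseline of 1.87 (limma, adjusted p under 0.05), against 26.2% of all genes tested in that fit. With PE + THZ1, 8 of the 31 were higher than with THZ1 alone, at a median ratio of 1.17, against 11.8% of all genes tested. The baseline libraries left in chose these genes and were also tested, so the counts are a description.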
